A study of Mus musculus with 7 samples.

Results

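The genes described here are amphiregulin (AREG), 5 other ligands of the epidermal growth factor (EGF) family and the 4 ERBB receptors, measured by RNA sequencing of islets from pregnant mice. The members were found by matching their names, ignoring case, to the gene table of the series, and all 10 were found among its 34082 gene names. AREG was taken because it was lower in islets of Prlr+/- mice than in islets of βPrlR+/- mice, so its difference between these groups is given as a description with no test. The other members, EREG, BTC, HBEGF, TGFA, EGF, EGFR, ERBB2, ERBB3 and ERBB4, were taken as its family and were not chosen for their own values. AREG, EREG and BTC lie close together on mouse chromosome 5, in the order Epgn, Ereg, Areg and Btc among the protein-coding genes.

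EGF family ligands are made as membrane-bound precursors, and metalloproteases of the ADAM family cut them free so that they can reach receptors on the same or a neighbouring cell. A ligand brings ERBB receptors together in pairs, which switches on their kinase domains and, through the adaptors GRB2 and SHC1, the RAS, RAF, MEK and ERK kinases and the PI3K and AKT kinases. In the islet, signalling through the EGF receptor is known to take part in the growth of β-cells after birth and in their expansion during pregnancy.

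Islets of 7 female mice on day 15 of pregnancy were measured, with 1 library per mouse. In the 4 βPrlR+/- mice a prolactin receptor allele with a floxed exon 5 is recombined by a tamoxifen-inducible Cre (CreER) driven by the Pdx1 promoter, and these mice had been given tamoxifen. In the 3 Prlr+/- mice, which carry no Cre and were given no tamoxifen, an allele is missing from every tissue. Genotype, Cre and tamoxifen therefore cannot be told apart between the groups. The mice were on the C57BL/6 background and had been mated with wild-type males, and no islets of wild-type or non-pregnant mice were analysed here. By the labels the mice were 3 to 4 months old, whereas the methods of the study give an older range. The labels also call the β-cell deletion homozygous (Pdx1CreERTM:PrlR-/-) and the sample titles read CkoWt, whereas the study describes it as heterozygous, and its names are used here. Islets were picked by hand from a single mouse for each library, and the methods describe overnight culture after picking. Neither the labels nor the methods name a batch. The deposited values are TPM, relative transcript levels that are corrected for transcript length and add up to 1000000 in each mouse, and TPM keeps no sequencing depth. The insulin genes took 46.1 to 58.9% of the TPM, so the values were scaled between mice by median-ratio size factors of 0.883 to 1.11, and the result is called scaled TPM.

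The targeted gene, PRLR, was at 55.6, 38.4, 47.3 and 38.8 scaled TPM across βPrlR+/- mice 1 to 4, with Prlr+/- mice 1 to 3 at 36.1, 51.1 and 35.05. The groups overlapped, with a log2 difference (Prlr+/- minus βPrlR+/-, on log2 of scaled TPM + 1) of -0.15 and a 95% interval of -0.55 to 0.26 (limma, adjusted p = 0.9999). It was -0.29 on TPM as deposited and ran from -0.31 without Prlr+/- mouse 2 to -0.04 without βPrlR+/- mouse 1. Both groups carry a deletion, and a value over whole transcripts does not read exon 5, so the level of PRLR does not check which library came from which group. All 10 β-cell markers were present, with INS at 314430 to 511917 scaled TPM.

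AREG, an EGF receptor ligand, was higher in every βPrlR+/- mouse than in any Prlr+/- mouse. It was at 2.09, 5.12, 1.40 and 2.06 scaled TPM in βPrlR+/- mice 1 to 4. In Prlr+/- mice 1 to 3 it was at 0.817, 0.481 and 0.237 scaled TPM. The groups did not overlap, and βPrlR+/- mouse 2 stood above the other 3 mice of its group. The group means were 2.67 ± 1.67 (SD, n = 4) and 0.512 ± 0.291 (SD, n = 3) scaled TPM, a ratio of 5.22 in favour of the βPrlR+/- mice. Without βPrlR+/- mouse 2 the ratio was 3.62, and with any 1 mouse left out it lay between 3.62 and 7.44. As deposited, before the size factors, AREG was at 1.97, 5.48, 1.56 and 2.20 TPM in βPrlR+/- mice, with 0.784, 0.479 and 0.209 TPM for Prlr+/- mice, and the groups were apart on that scale too. The log2 difference was -1.20 with a pseudocount of 1 and -2.13 with a pseudocount of 0.1, since a pseudocount of 1 is large beside these low levels. Of all 14840 genes with a mean of at least 0.5 TPM, 462 (3.11%) were lower in every Prlr+/- mouse than in any βPrlR+/- mouse, and AREG, picked for this contrast, is 1 of them. The table holds a single transcript of AREG (NM_009704.4), so the gene value is that of this transcript.

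**Figure D1:**
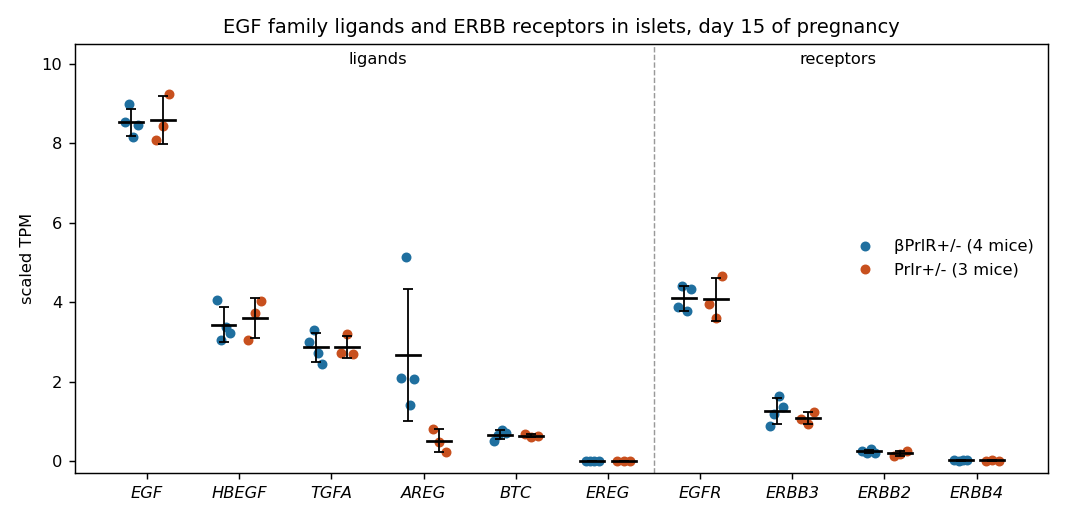
Level of each member in scaled TPM (vertical axis) for the 4 βPrlR+/- mice (blue) and the 3 Prlr+/- mice (orange), with ligands on the left and receptors on the right, each point being 1 mouse and bars the mean ± SD. AREG is the only member whose points separate by group, from 1.40 to 5.12 against 0.237 to 0.817, while EGF is the highest ligand and EGFR the highest receptor in all 7 mice.

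The bases in front of Areg are shown because it was the only member without overlap between the groups. These are the 250 bases before the gene start in RefSeq on the build GRCm38.p6, chr5:91139349-91139598 on the plus strand, with a cAMP response element and a TATA box in capitals.
Areg: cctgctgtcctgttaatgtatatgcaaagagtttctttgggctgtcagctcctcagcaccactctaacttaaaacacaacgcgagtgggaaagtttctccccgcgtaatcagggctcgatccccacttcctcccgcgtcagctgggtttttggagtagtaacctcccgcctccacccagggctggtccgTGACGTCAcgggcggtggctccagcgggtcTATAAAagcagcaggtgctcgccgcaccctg
The element TGACGTCA, the sequence bound by the cAMP-responsive factor CREB, ends 53 bases before the start, and TATAAA ends 25 bases before it, with no overlap between them. On either strand, TGACGTCA occurred in 1.55% and TATAAA in 12.4% of 32851 promoters of the same length. The element TTCNNNGAA, of the kind bound by STAT5 downstream of the prolactin receptor, occurred in 7.02% of promoters and not in this window. Of the 10 members, 7 had a promoter entry, and among these only Areg held TGACGTCA or TATAAA and none held TTCNNNGAA. The matches are letters in a reference sequence, and no binding was measured in these islets.

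Islets hold several cell types, and in bulk RNA fewer cells of a type and less RNA per cell cannot be told apart. Of the cell types that could be present, the 10 endothelial markers were all lower on average in Prlr+/- mice, with a summed level of 156 to 191 scaled TPM against 188 to 220 in βPrlR+/- mice. PECAM1, CDH5, TIE1 and ESAM did not overlap between the groups, as for 3.11% of all genes in this direction. The other endothelial markers overlapped. The δ- and PP-cell markers were lower in 4 of 4, at sums of 12092 to 12743 against 13617 to 16231, and while the sums did not overlap, SST and PPY, which made up nearly all of them, each overlapped. The 4 α-cell markers were also all lower, at 14590 to 15115 against 14566 to 22109, and 6 of 7 Schwann cell markers were lower, at 6.17 to 7.31 against 6.70 to 10.9. Of the Schwann cell markers only S100B did not overlap, at 0.269 to 0.454 against 0.565 to 0.987. The sum of the β-cell markers ran the other way, with 1 of 10 lower, at 582064 to 714823 against 451240 to 598761. The part of these shifts in the AREG difference was not tested.

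βPrlR+/- mouse 2, the mouse with the highest AREG, had the lowest acinar sum and the highest duct sum. The 9 acinar markers in the table added up to 15104, 1699, 15120 and 5037 scaled TPM for βPrlR+/- mice 1 to 4 against 4720, 12840 and 6570 for Prlr+/- mice 1 to 3, with 7 of 9 lower on average in Prlr+/- mice. The 7 duct markers added up to 227, 293, 230 and 291 against 275, 186 and 292, with 3 of 7 lower and KRT7 holding most of each sum. Both sums overlapped between the groups. Among leukocytes known to make amphiregulin, the 10 markers of mast cells, group 2 innate lymphoid cells and regulatory T cells added up to 2.29 to 3.98 scaled TPM in βPrlR+/- mice and 2.25 to 2.77 in Prlr+/- mice, with 5 of 10 lower. KIT made up most of that sum at 1.64 to 3.36, and FCER1A, a subunit of the mast cell IgE receptor, was listed at 0 in all 7 mice. The 8 macrophage and lymphocyte markers in the table added up to 21.2 to 29.999 and 22.9 to 29.7, with 3 of 8 lower. CD79A, at 11.7 to 22.3 over the 7 mice, held most of each of these sums. The 9 fibroblast and pericyte markers added up to 47.8 to 68.3 and 36.2 to 58.2, with 7 of 9 lower, and the 6 autonomic neuron markers to 122 to 152 and 108 to 142, with 5 of 6 lower. RGS5, at 27.2 to 47.7 over the 7 mice, held most of the fibroblast and pericyte sum, and SNAP25 most of the neuron sum. GAP43, at 4.73 to 5.59 against 3.24 to 4.60, and CHAT, below the filter at 0.202 to 0.282 against 0.0776 to 0.129, did not overlap. ELAVL4 did not overlap either but was higher in Prlr+/- mice, at 10.4 to 11.3 against 12.1 to 14.9. IL2RA, a leukocyte marker below the filter, was also higher without overlap, at 0.126 to 0.218 against 0.226 to 0.275. Over all genes 3.11% were lower without overlap and 1.84% higher. The part of any of these cell types in the AREG level was not tested.

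None of the other 5 ligands separated the groups. EGF, the ligand that gives the family its name, was at 8.52, 8.98, 8.16 and 8.47 scaled TPM among βPrlR+/- mice and 8.07, 8.44 and 9.25 among Prlr+/- mice. The groups overlapped, and the log2 difference was 0.0069 with a 95% interval of -0.15 to 0.16 (limma, adjusted p = 0.9999). HBEGF, which binds heparin and activates EGFR and ERBB4, was at 4.06, 3.05, 3.38 and 3.23 scaled TPM against 3.04, 3.73 and 4.03. Its highest value was in a βPrlR+/- mouse and its lowest in a Prlr+/- mouse, and the log2 difference was 0.05 (95% interval -0.20 to 0.31, limma, adjusted p = 0.9999). TGFA, transforming growth factor α, an EGFR ligand, was at 2.99, 3.29, 2.72 and 2.45 scaled TPM in βPrlR+/- mice and at 2.73, 3.19 and 2.68 in Prlr+/- mice. The latter lay within the range of the former, with a log2 difference of 0.0038 (95% interval -0.22 to 0.23, limma, adjusted p = 0.9999). For HBEGF, TGFA and EGF the sign of the difference turned on TPM as deposited, to -0.06, -0.10 and -0.12, where the median of all genes was itself -0.12.

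BTC, betacellulin, a ligand of EGFR and ERBB4 first found in medium of a β-cell tumour line, was low in both groups. It was at 0.514, 0.658, 0.773 and 0.702 scaled TPM in βPrlR+/- mice and at 0.684, 0.599 and 0.625 in Prlr+/- mice. All 3 Prlr+/- mice lay inside the βPrlR+/- range, and the log2 difference was -0.02 (95% interval -0.23 to 0.19, limma, adjusted p = 0.9999). EREG, epiregulin, whose gene is the neighbour of Areg, was listed at 0 in all 3 Prlr+/- mice and in βPrlR+/- mice 1 and 4, and was at 0.0086 and 0.0054 scaled TPM in βPrlR+/- mice 2 and 3. At such a level the file does not tell a transcript at a trace from none, and the exact permutation test, two-sided and with 35 ways to split the mice, gave p = 0.429. The 3 clustered members thus had different patterns, with AREG apart between the groups, BTC overlapping and EREG at or near 0.

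The ligands kept the same order in most mice. By their medians over the 7 mice they ran from EGF (8.47 scaled TPM) through HBEGF (3.38), TGFA (2.73), AREG (1.40) and BTC (0.658) to EREG (0). EGF was above HBEGF in 7 of 7 mice (two-sided exact sign-flip permutation test, p = 0.0156 and 0.0188 after adjustment over the 6 pairs of neighbours tested). BTC was above EREG in 7 of 7, but EREG at or near 0 fixed that order, so the test of this pair is not read. HBEGF was above TGFA in 6 of 7 mice, with an exact p of 0.0313 before and after adjustment, the exception being βPrlR+/- mouse 2. The place of AREG differed by mouse and was not tested, since AREG was chosen for its groups. AREG was above BTC in 5 of 7 mice, the 4 βPrlR+/- mice and Prlr+/- mouse 1, and was above TGFA only in βPrlR+/- mouse 2.

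AREG was a minor share of the ligand mRNA even where it was high. Of the summed scaled TPM of the 6 ligands, AREG held 11.5, 24.3, 8.55 and 12.2% for βPrlR+/- mice 1 to 4 against 5.33, 2.93 and 1.41% for Prlr+/- mice 1 to 3. EGF held 42.5 to 55.0%, and was the highest ligand in every mouse. The sum of the 6 ligands was 18.2, 21.1, 16.4 and 16.9 scaled TPM among βPrlR+/- mice and 15.3, 16.4 and 16.8 among Prlr+/- mice. Without AREG the sums were 16.1, 16.0, 15.0 and 14.8 against 14.5, 16.0 and 16.6, and these overlapped. TPM counts transcripts and not the peptide that is made or released from them.

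**Figure D2:**
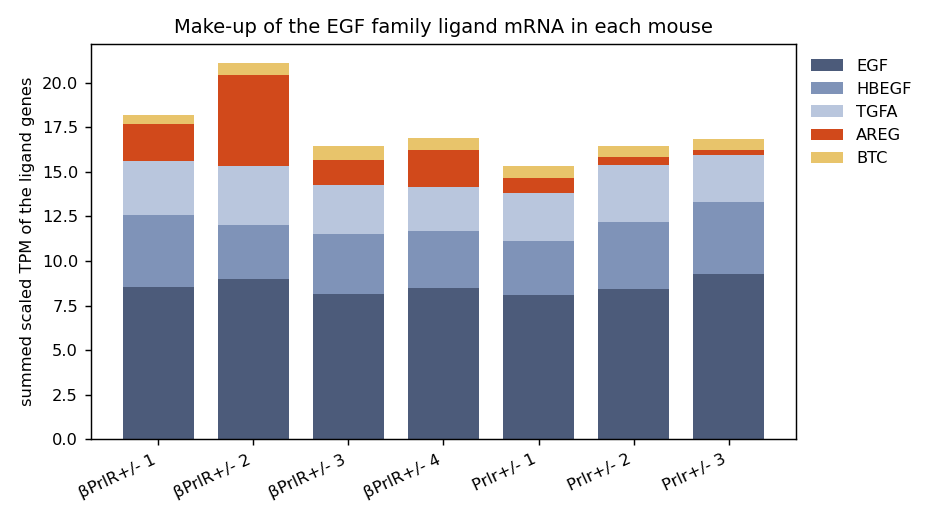
Summed scaled TPM of the ligand genes in each mouse (vertical axis), stacked by gene, for the 4 βPrlR+/- mice and the 3 Prlr+/- mice on the horizontal axis; EREG, at 0.0086 at most, is too low to draw. The AREG segment is 8.55 to 24.3% of the bar in βPrlR+/- mice and 1.41 to 5.33% in Prlr+/- mice, while EGF is the largest segment in each.

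The receptors did not separate the groups either. EGFR, the receptor of AREG, was at 3.87, 4.41, 3.77 and 4.33 scaled TPM in βPrlR+/- mice and at 3.95, 3.60 and 4.67 in Prlr+/- mice. Both the highest and the lowest value belonged to Prlr+/- mice, and the means were 4.09 ± 0.324 (SD, n = 4) and 4.07 ± 0.544 (SD, n = 3). The log2 difference was -0.0086 with a 95% interval of -0.23 to 0.21 (limma, adjusted p = 0.9999). ERBB3, which binds neuregulins and has little kinase activity of its own, was at 0.876, 1.17, 1.64 and 1.36 scaled TPM against 1.05, 0.943 and 1.24. The Prlr+/- mice lay within the βPrlR+/- range, with a log2 difference of -0.12 (95% interval -0.42 to 0.18, limma, adjusted p = 0.9999). It was -0.20 without βPrlR+/- mouse 1 and -0.039 without βPrlR+/- mouse 3.

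ERBB2, which has no known ligand and acts as a partner of the other receptors, was at 0.257, 0.198, 0.298 and 0.210 scaled TPM in βPrlR+/- mice and at 0.134, 0.187 and 0.262 in Prlr+/- mice. Prlr+/- mice 1 and 2 were below all βPrlR+/- mice and mouse 3 was not, and the exact permutation p was 0.314. ERBB4, a neuregulin, HBEGF and BTC receptor, was at 0.0043 to 0.0226 scaled TPM over the 7 mice, with overlap between the groups (exact permutation p = 0.686). With the receptors ordered by their medians over these same mice, EGFR was above ERBB3 and ERBB3 above ERBB2 in 7 of 7 mice (two-sided exact sign-flip permutation test, p = 0.0156 for each and 0.0188 after adjustment). ERBB2 was above ERBB4 in 7 of 7, but ERBB4 near 0 fixed that order, so the test of this pair is not read. EGFR made up 65.8 to 77.0% and ERBB3 17.5 to 28.7% of the summed receptor level, which ran from 4.76 to 6.18 scaled TPM.

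In all, 7 of the 10 members passed the filter of a mean of 0.5 TPM and entered the fit, and EREG, ERBB2 and ERBB4 did not. Leaving AREG aside, limma called 0 of the other 6 at an adjusted p under 0.05 and 0 at an unadjusted p under 0.05, beside 10 of 14840 genes (0.0674%) and 671 (4.52%) over the whole table. Exact permutation p-values of these 6 were 0.429 for ERBB3 and 0.686 to 0.971 for the others. The 95% intervals of the 6 differences reached no further than -0.42 and 0.31.

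EGFR mRNA was split between a full-length transcript and a short one. The full-length transcript NM_207655.2 codes for 1210 amino acids over 28 exons, and the short transcript NM_007912.4 for 655 over 16 exons. They share the first 642 codons and then part, so that the short form ends before the transmembrane and kinase domains and is known as a soluble receptor. The place where they part is shown because the share of the short form bears on how much EGFR mRNA codes for a kinase. Each line gives 30 shared coding bases in lower case and the next 30 bases of that transcript in capitals (chromosome 11, plus strand, read from the GENCODE transcripts of GRCm38 that GENCODE pairs with these RefSeq IDs).
NM_207655.2: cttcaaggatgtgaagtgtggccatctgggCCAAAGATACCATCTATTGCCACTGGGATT
NM_007912.4: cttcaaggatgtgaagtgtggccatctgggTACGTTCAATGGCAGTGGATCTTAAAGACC
The full-length form was at 2.34, 2.67, 2.38 and 2.65 scaled TPM in βPrlR+/- mice and at 2.68, 1.98 and 2.76 in Prlr+/- mice. The short form was at 1.52, 1.74, 1.39 and 1.68 against 1.28, 1.63 and 1.91. Both overlapped between the groups, with log2 differences of -0.02 (95% interval -0.32 to 0.27) for the full-length form and 0.0052 (95% interval -0.31 to 0.32) for the short form (limma over 28553 transcripts, adjusted p = 0.99999 for both, beside 0.021% of transcripts called). The short form held 38.7 ± 1.20% of EGFR in βPrlR+/- mice (SD, n = 4) and 39.4 ± 6.56% in Prlr+/- mice (SD, n = 3), a difference with an exact permutation p of 0.771. The Prlr+/- mice spread more widely, from 32.3% in mouse 1 to 45.2% in mouse 2.

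**Figure D3:**
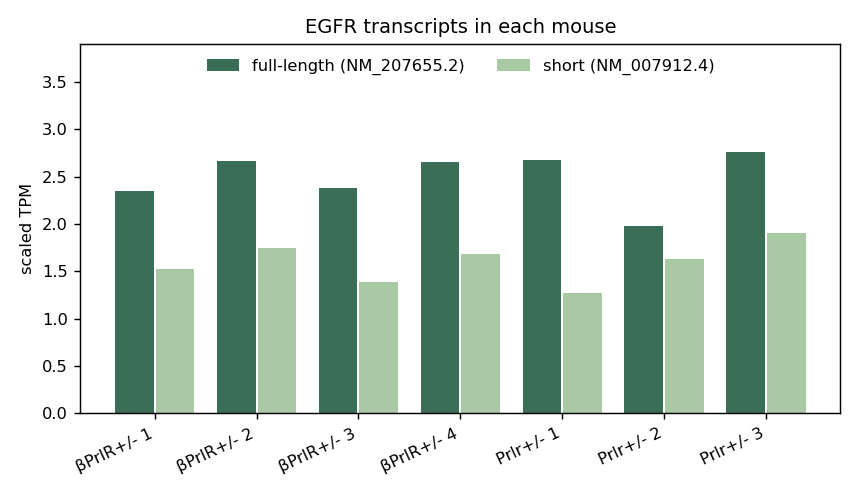
Scaled TPM (vertical axis) of the full-length (dark) and short (light) EGFR transcripts in each of the 7 mice, with 1 pair of bars per mouse. The full-length form is the higher of the pair in each mouse, and the short form holds 32.3 to 45.2% of the gene.

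EGF was the other member with several expressed transcripts, and 7 were listed. NM_010113.4 held 64.4 to 71.5% of the EGF level, NM_001329594.1 held 7.31 to 22.3%, and NM_001310737.1 ranged from almost 0 to 17.1%. The log2 differences of these 3 were 0.02, 0.07 and -0.16, with 95% intervals of -0.19 to 0.23, -0.44 to 0.58 and -0.96 to 0.64 (limma, adjusted p = 0.99999 for each). XR_001783650.1, an EGF transcript singled out because of its values, was at 0.0835, 0.205, 0.131 and 0.107 scaled TPM in βPrlR+/- mice and listed at 0 in the Prlr+/- mice. It made up at most 2.28% of EGF. XM_006500990.3 ran the other way on average, at 0.0718 ± 0.0840 (SD, n = 4) against 0.336 ± 0.307 (SD, n = 3) scaled TPM, with overlap. Levels of transcripts that share most of their bases are estimates of how shared reads divide. BTC, HBEGF, TGFA, ERBB2, ERBB3 and EREG were each listed with a single transcript, and the 5 of ERBB4 were all near or at 0.

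Among the EGF family ligands that are not members, epigen (EPGN) and the neuregulins were all low. EPGN, the gene at the edge of the Areg cluster, was at 0 to 0.0241 scaled TPM. NRG4, a ligand of ERBB4, was the only one to enter the fit, at 0.556, 0.458, 0.608 and 0.675 scaled TPM in βPrlR+/- mice and 0.379, 0.595 and 0.366 in Prlr+/- mice. Its groups overlapped, with a log2 difference of -0.12 (95% interval -0.35 to 0.11, limma, adjusted p = 0.9999). Without Prlr+/- mouse 2 the NRG4 difference was -0.20. NRG1, a ligand of ERBB3 and ERBB4, was at 0.258 ± 0.0946 (SD, n = 4) against 0.160 ± 0.0781 (SD, n = 3) with overlap (exact permutation p = 0.171). NRG2, which binds the same receptors, was at 0.209 ± 0.0549 (SD, n = 4) against 0.219 ± 0.0657 (SD, n = 3), with an exact permutation p of 0.800. NRG3, an ERBB4 ligand, was at 0.107, 0.101, 0.137 and 0.0822 scaled TPM in βPrlR+/- mice and at 0.0341, 0.0508 and 0.0179 in Prlr+/- mice. The NRG3 groups did not overlap, but NRG3 is in a gene list that the study picked on these same mice, its level is below the filter, and its values are given with no test.

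The genes that act in the release of the ligands showed no call. Of 10 genes for ligand shedding, 8 were tested, and limma called 0 in either direction at an adjusted p under 0.05 and 2 at an unadjusted p under 0.05, beside 0.0674% and 4.52% of all genes. ADAM17, the main sheddase of AREG, was at 5.55, 5.06, 5.60 and 5.44 scaled TPM in βPrlR+/- mice and at 5.58, 6.20 and 5.27 in Prlr+/- mice, with overlap. TIMP3, an inhibitor of ADAM17 and other metalloproteases, had the highest level of the list, at 33.2, 41.8, 49.3 and 42.2 scaled TPM in βPrlR+/- mice and 29.0, 32.2 and 29.95 in Prlr+/- mice. The TIMP3 groups did not overlap, as for 3.11% of all genes in this direction, but they overlapped on TPM as deposited. With a log2 difference of -0.43 (95% interval -0.72 to -0.14) TIMP3 did not pass the adjusted test (limma, adjusted p = 0.807). ADAM9, a membrane metalloprotease, was at 16.7 ± 1.01 (SD, n = 4) against 17.8 ± 0.528 (SD, n = 3) scaled TPM, with a log2 difference of 0.09 (limma, adjusted p = 0.9999). The median log2 difference of the 8 genes was -0.08, with 5 of 8 below 0, beside a median of 0.0042 and 48.3% below 0 over all genes.

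The genes of the cascade behind the receptors were all tested. Among these 23, limma called 0 at an adjusted p under 0.05 and 1 at an unadjusted p under 0.05 (0.0674% and 4.52% over all genes). MAPK3, the kinase ERK1, was at 158 ± 13.2 (SD, n = 4) against 158 ± 21.8 (SD, n = 3) scaled TPM. AKT1, a kinase activated through PI3K, was at 88.6 ± 4.98 (SD, n = 4) against 98.9 ± 9.84 (SD, n = 3), with a log2 difference of 0.15 (limma, adjusted p = 0.9999). PTPN11, the phosphatase SHP2 that links receptors to RAS, was at 44.0, 45.4, 43.8 and 44.2 scaled TPM in βPrlR+/- mice and at 46.3, 51.3 and 53.7 in Prlr+/- mice. The PTPN11 groups did not overlap, an order in which 1.84% of all genes were higher in Prlr+/- mice, and the log2 difference of 0.18 (95% interval 0.03 to 0.33) had an adjusted p of 0.963 (limma). On TPM as deposited the PTPN11 groups overlapped, with a log2 difference of 0.037. The median of the 23 differences was 0.02, with 7 of 23 below 0, and this median turned to -0.12 on TPM as deposited.

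Inhibitors of the receptors and of the cascade numbered 15, of which 14 were tested. Of these, limma called 0 at an adjusted and 0 at an unadjusted p under 0.05, beside 0.0674% and 4.52% of all genes. ERRFI1, which binds and blocks the EGFR kinase, was the highest at 17.4, 39.9, 34.7 and 39.1 scaled TPM in βPrlR+/- mice and 32.1, 16.0 and 38.3 in Prlr+/- mice. Its spread within each group was wide and the groups overlapped (log2 difference -0.20, limma, adjusted p = 0.9999). PTPN1, a phosphatase that acts on EGFR, was at 21.0 ± 2.49 (SD, n = 4) against 20.0 ± 1.59 (SD, n = 3), and SPRED2, an inhibitor of RAS signalling, at 7.76 ± 0.428 (SD, n = 4) against 6.73 ± 0.798 (SD, n = 3). SPRED2 had a log2 difference of -0.18 (limma, adjusted p = 0.9999). The median of the 14 differences was -0.07 and 13 of 14 were below 0, against 48.3% over all genes. Without βPrlR+/- mouse 1 that median was -0.12.

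Genes that ERK signalling is known to induce were read as a list of 20, of which 17 were tested. Here limma called 0 at an adjusted p under 0.05 and 3 at an unadjusted p under 0.05, beside 0.0674% and 4.52% of all genes. CCND1, cyclin D1, which drives cells into division, was at 33.6, 31.2, 36.9 and 36.4 scaled TPM in βPrlR+/- mice and at 39.6, 52.0 and 38.5 in Prlr+/- mice. All 3 Prlr+/- mice were above all βPrlR+/- mice, as were those of 1.84% of all genes, with a log2 difference of 0.31 (95% interval 0.04 to 0.58, limma, adjusted p = 0.9999). On TPM as deposited the CCND1 groups overlapped, with a log2 difference of 0.17, and without Prlr+/- mouse 2 the difference was 0.18. DUSP4, a phosphatase of ERK, was at 1.69 ± 0.428 (SD, n = 4) against 2.49 ± 0.248 (SD, n = 3) scaled TPM, a log2 difference of 0.39 (95% interval 0.08 to 0.70, limma, adjusted p = 0.962). JUNB, an immediate early transcription factor, was at 23.7 ± 8.41 (SD, n = 4) against 17.9 ± 5.66 (SD, n = 3), with a log2 difference of -0.36 (limma, adjusted p = 0.9999). ETV1 was also lower in Prlr+/- mice, at 14.3 ± 1.78 (SD, n = 4) against 11.2 ± 1.44 (SD, n = 3), a log2 difference of -0.33. The ETV1 groups overlapped in scaled TPM but not on TPM as deposited. The median of the 17 differences was -0.08, with 13 of 17 below 0 against 48.3% over all genes, and it ran from -0.17 to -0.0056 with 1 mouse left out (-0.0056 without Prlr+/- mouse 1, -0.0099 without βPrlR+/- mouse 2 and -0.17 without βPrlR+/- mouse 4). No list had a gene past the adjusted threshold in either direction, and the lists are described by these counts alone.

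**Figure D4:**
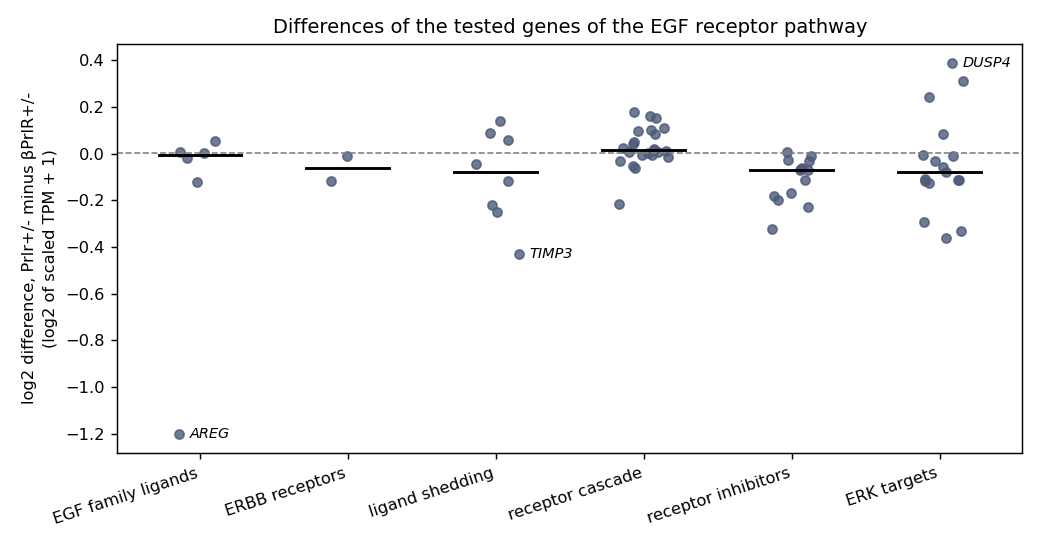
Log2 difference, Prlr+/- minus βPrlR+/- (vertical axis, log2 of scaled TPM + 1), of each tested gene of the EGF receptor pathway, grouped by role, with 1 point per gene, a bar at the median of each group and a dashed line at the median of all genes (0.0042). AREG lies at -1.20, apart from the other ligands, and no point but AREG passes beyond -0.43 or 0.39.

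The genes whose pattern over the 7 mice was nearest to that of AREG were TRPV2, SMAD7, UCHL1, INTS9 and Mt3. Nearness was the distance between log2 profiles standardised to a mean of 0 and an SD of 1, and these genes lay at 0.648 to 0.772 where the median of 14839 genes was 3.50. All 5 peaked in βPrlR+/- mouse 2, as AREG did. UCHL1, a deubiquitinase of neurons and endocrine cells, was at 44.8, 51.3, 43.3 and 45.5 scaled TPM in βPrlR+/- mice and at 38.2, 32.2 and 32.9 in Prlr+/- mice. UCHL1 is in the gene list that the study picked on these same mice. It was named here for its closeness to AREG, itself chosen for this contrast, so its values are given with no test. No tested member was among the near ones, TGFA at a distance of 2.86 being the closest and HBEGF at 4.22 the farthest. For EGFR the nearest were EXOC7, NCEH1, RALGDS, ATP6V0A1 and CKB, at 0.447 to 0.540 where the median was 3.49, and all 5 were highest in Prlr+/- mouse 3, the mouse with the highest EGFR. EGF was the member nearest to EGFR, at a distance of 1.68. With 7 mice and this many genes some profiles lie close for any gene, and these distances describe the mice without a test.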

How the data were processed

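Poly(A) RNA of islets from 4 βPrlR+/- and 3 Prlr+/- mice was sequenced as strand-specific libraries, 1 per mouse, and the authors used Kallisto 0.42.4 with a mouse RefSeq transcript set (version from the submitters' processing notes). The methods name FPKM, but the deposited values sum to 1000000 per mouse and were used as TPM, for 107384 transcripts and 34082 gene names. No genome build is given in the sources used here, and TPM keeps no depth, so no counting interval is given. Mice were scaled by median-ratio size factors, and genes with a mean of at least 0.5 TPM were fitted with limma 3.58.1 (R 4.3.3, mean-dependent prior variance) on log2(scaled TPM + 1), with Benjamini-Hochberg adjustment over all 14840 genes and a threshold of 0.05. Single values were compared by exact permutation, two-sided, over 35 splits of the mice (smallest possible p 0.0286). The model was also run on simulated data with independent noise, and no outcome of that run is used here. The limma p-values set a group difference against the spread between mice within groups, moderated by that prior variance. Exact p-values compare the observed value with other splits of these mice, or with sign flips within them.

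The members and lists were chosen with earlier results of these data known. Named were the members, EPGN and NRG1 to NRG4, in each other list the genes past the threshold, the 2 highest and the 1 with the smallest unadjusted p, the 5 profiles nearest to AREG and to EGFR, PRLR, and the highest marker of each cell list. ADAM17, FCER1A, GAP43, CHAT, ELAVL4 and ETV1 were named after their values were seen. Alternatives were a pseudocount of 0.1, upper-quartile scaling, TPM as deposited, other filters, a robust fit and leaving out each mouse. Promoter sequences came from RefSeq (GRCm38.p6) and were matched by symbol, for 7 of 10 members, and EGFR coding sequences from the GENCODE transcripts paired with the RefSeq IDs. Python 3.11.15 with numpy 2.4.6, pandas 2.3.3, scipy 1.17.1 and matplotlib 3.10.9 was used.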

Additional observations from a re-analysis of the deposited data

How the results depend on the processing

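Over the whole table the 10 genes past the threshold became 18 with a pseudocount of 0.1, 4 without the filter and 2 to 13 with 1 mouse left out (2 without βPrlR+/- mouse 4, 5 without βPrlR+/- mouse 1, Prlr+/- mouse 1 or Prlr+/- mouse 2). Of the 10, 9 were lower and 1 higher in Prlr+/- mice, but without Prlr+/- mouse 1 there were 2 lower and 3 higher, and without Prlr+/- mouse 3 there were 2 lower and 5 higher. The AREG difference was -2.13 with a pseudocount of 0.1 and -1.37 to -0.92 with a mouse left out. AREG was given no test. BTC, HBEGF, TGFA, EGF, EGFR and ERBB3 were not called in any limma fit they entered, and with the filter at 2 TPM BTC and ERBB3 did not enter. The differences of BTC, HBEGF, TGFA, EGF and EGFR changed sign under some alternatives. For EREG, ERBB2 and ERBB4 the exact test cannot pass the threshold with a mouse left out. On TPM as deposited HBEGF was at -0.059, TGFA at -0.10 and EGF at -0.12, and with upper-quartile scaling TGFA was at -0.016 and EGF at -0.017. With a mouse left out BTC ran from -0.065 to 0.011, HBEGF from -0.015 to 0.15, TGFA from -0.055 to 0.056, EGF from -0.043 to 0.047 and EGFR from -0.092 to 0.060. NRG4, the only tested gene of its list, was at -0.32 with a pseudocount of 0.1 and at -0.20 without Prlr+/- mouse 2. The list medians on TPM as deposited were -0.20 for shedding, -0.12 for the cascade and -0.19 for the inhibitors, where the median of all genes was -0.12, and the cascade was at -0.0061 with upper-quartile scaling and 0.0014 to 0.057 with a mouse left out. The median of the ERK targets was -0.18 on TPM as deposited and -0.17 to -0.0056 with a mouse left out. That of the inhibitors was -0.12 to -0.07 with a mouse left out. ERBB3 was at -0.20 to -0.039 and PRLR at -0.31 to -0.04 with a mouse left out. No paired analysis was possible because the labels give the groups no shared replicate numbers. TPM gives no read count per gene, so levels near 0, as for EREG and ERBB4, cannot be told from none. The cause of these shifts was not tested.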

Other observations

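PARM1, the first protein-coding gene after Btc on chromosome 5, was picked out after its values were seen. It was at 3.89, 4.11, 4.00 and 4.29 scaled TPM in βPrlR+/- mice and at 2.48, 2.97 and 3.08 in Prlr+/- mice, so the groups did not overlap, as for 3.11% of all genes in this direction. The log2 difference was -0.40 ± 0.08 (SE), with an adjusted p of 0.349 (limma). BTC, which lies between AREG and PARM1, overlapped between the groups, and so did RCHY1, the next gene after PARM1, at 28.2 ± 1.49 (SD, n = 4) against 27.98 ± 2.84 (SD, n = 3). On the other side of the cluster, MTHFD2L was at 1.85 ± 0.0796 (SD, n = 4) against 1.71 ± 0.0681 (SD, n = 3), without overlap but with a log2 difference of -0.07 (limma, adjusted p = 0.9999). CXCL2, the next gene with a value, was below the filter at 0.128 ± 0.0139 (SD, n = 4) against 0.0715 ± 0.0407 (SD, n = 3), also without overlap.

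EGR1 and FOS, immediate early genes that ERK signalling induces, were singled out after their values were seen, and varied more within the groups than between them. EGR1 was at 16.0, 24.4, 13.1 and 14.8 scaled TPM in βPrlR+/- mice and at 11.5, 7.02 and 40.7 in Prlr+/- mice, and FOS at 8.64, 16.2, 6.79 and 8.01 against 5.16, 5.02 and 22.9. Prlr+/- mouse 3 was highest for both, and also had the lowest AREG and the highest EGFR of the 7 mice. βPrlR+/- mouse 2, with the highest AREG, was the highest of its own group for both.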
